A study of Danio rerio with 12 samples.

Results

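A set of 139 genes stood above the uncut fin on days 2, 3 and 10 after amputation (days post amputation, dpa) in the regenerating caudal fin of adult zebrafish, out of 33737 gene identifiers counted. They were chosen from the measured levels. Counts were scaled to CPM, counts per 1000000 counts of the library, and 1 was added to the mean of each stage. The 4 stage means of a gene were sorted, and the largest ratio between neighbours in that order split high stages from low ones. A gene was eligible when 2, 3 and 10 dpa were its high stages, every library of these stages exceeded every uncut library and each high mean was at least 5 CPM. Of 1173 such genes, the 150 with the largest ratio were taken, and 11 of them were set aside by name. The ratio therefore sets the lowest of the 3 regenerating stages against the uncut fin, and among the 139 members it ran between 3.02 and 16.4 with a median of 3.57. That the members stood above the uncut fin is thus a condition of the choice and is given below as a description without a test.

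Fins were sampled at 2 dpa, 3 dpa and 10 dpa and, as the control, before amputation (0 dpa, here the uncut fin), with 3 libraries per stage and 12 in all. All fish were adults of the AB-Tu strain between 8 and 18 months of age, and each library held RNA of a pool of 6 fish. Messenger RNA was sequenced on a SOLiD instrument from strand-aware SENSE libraries. How much of the stump was collected with the regenerate, and whether the same fish gave fins at more than 1 stage, was found in no source used here. P-values measure the spread between pools and treat all pools as independent, which the sources do not state.

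After amputation the wound is covered by epidermis, and cells of the stump lose part of their specialised features, divide and gather beneath it as a blastema. The blastema feeds outgrowth, in which new bone rays, their joints and the tissue between them are laid down. New collagen passes through several steps on the way to a fibril. Enzymes and chaperones of the endoplasmic reticulum (ER) hydroxylate and fold the chains, proteases trim the secreted molecule, and lysyl oxidases cross-link it. Members were assigned to these and other roles by hand after their levels were known. The groups are cell division with 35 members, collagen maturation and ER lumen with 10 each, matrix proteins and hyaluronan with 9, matrix proteases and matrix receptors with 7, signals with 7, cytoskeleton with 7, DNA repair and chromatin with 6, other named genes with 26, and 22 identifiers without a symbol.

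Total counts lay between 8833337 and 22843743 per library, and levels below are CPM of TMM-scaled library sizes, not divided by gene length, so they are comparable between libraries and not between genes. All 139 members passed the filter on low counts. In the uncut fin 11 members had fewer than 10 counts in at least 1 library, but none was at 0, and the smallest count of any member at 2, 3 or 10 dpa was 29. The libraries of a stage were not alike for these genes. Replicate 3 of the uncut fin was the highest of its stage for 111 members and replicate 2 the lowest for 118. At 2 dpa, replicate 2 was the highest for 105 members and replicate 3 the lowest for 86. Accordingly the median coefficient of variation between replicates was 31.7% for members at 2 dpa and 34.0% in the uncut fin, against 26.5% and 20.3% for all 16612 genes tested. At 3 dpa it was 16.8% for members and 21.0% for all genes. The epidermal keratins krt4 and krt5, the bone collagen col1a1a and the distal appendage gene hoxa13b were present throughout. Of the same marker lists, cyt1 and bglap were near 0. The distal appendage gene hoxd13a was low, with stage means between 0.573 and 4.24 CPM. The liver list, 11 genes, summed to under 2 CPM.

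Most members were highest at 3 dpa and lowest of the regenerating stages at 10 dpa. The mean level was highest at 3 dpa for 94 members, at 2 dpa for 42 and at 10 dpa for 3, and 10 dpa was the lowest regenerating stage for 116. Summed over all members, the level was 3605, 2409 and 5210.3 CPM in the 3 uncut fins, 17460.3, 22558 and 14318 CPM at 2 dpa, 28280.4, 25021 and 25086 CPM at 3 dpa, and 13269, 13823 and 14583 CPM at 10 dpa. Each 10 dpa library was thus below each 3 dpa library and at least 2-fold above each uncut library. Of the gain over the uncut fin at its highest stage, the median member still had 48.7% at 10 dpa. The choice bears on this share, because it takes only genes with 10 dpa among their high stages. By the same filters 1081 genes had only 2 and 3 dpa as high stages and cannot be members. This share and those of single roles and genes below are therefore descriptions. Against the uncut fin, 22.9% of all tested genes passed as higher at 2 dpa, 22.8% at 3 dpa and 6.62% at 10 dpa. Member libraries lay above all uncut libraries at every stage, which held for 26.6% of all genes at 2 dpa, 29.7% at 3 dpa and 19.5% at 10 dpa. The choice of members fixes this outcome for them. Nothing is read from it, and no test of members against the uncut fin is counted.

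**Figure D1:**
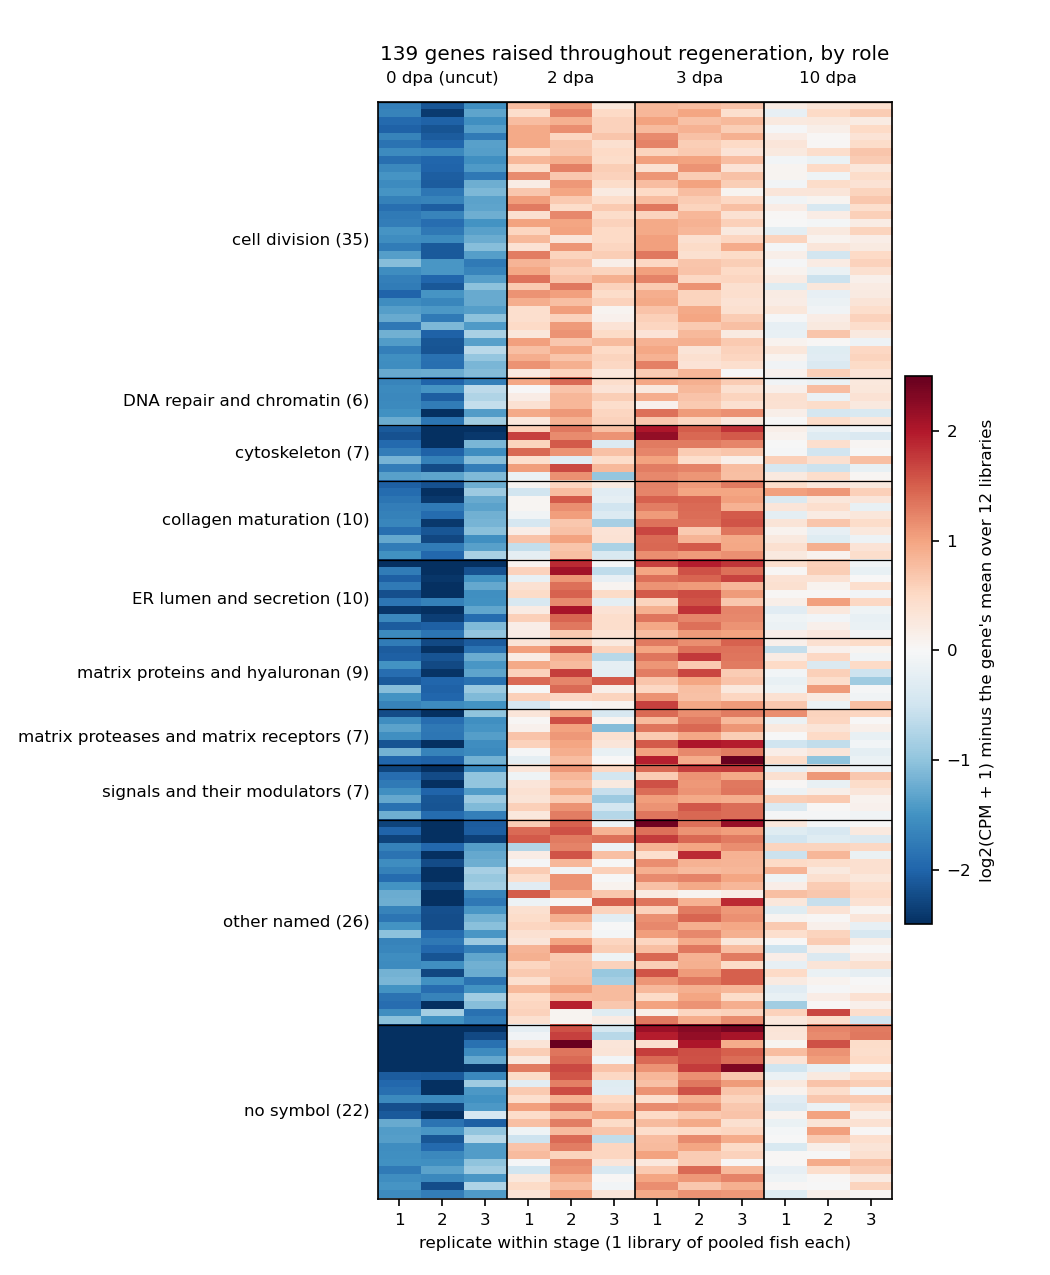
Level of each of the 139 members (rows, grouped by role) in each of the 12 libraries (columns, by stage), as log2(CPM + 1) minus the mean of that gene over the libraries. Uncut fins are low in every row by the choice of members, 3 dpa is the darkest red in most matrix and ER rows, and most rows are paler at 10 than at 3 dpa.

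Comparisons among 2, 3 and 10 dpa are not free of the choice either. It read the same levels, and it admits only genes whose regenerating stages lie closer to their neighbours than the lowest lies to the uncut fin. Genes lost early and restored later, such as 1060 with 0 and 10 dpa as their high stages by the same filters, cannot be members but count among all genes. The shares of all genes below are therefore given as background. No contrast is drawn from them. Between 10 and 3 dpa, 52 of 139 members fell at an adjusted p under 0.05, against 8.25% of all genes tested. None rose, against 11.3% (edgeR's quasi-likelihood test, Benjamini-Hochberg adjustment over 16612 genes). No member was higher at 10 than at 3 dpa at an unadjusted p under 0.05 either, nor with DESeq2. In a fit of only these stages 1 member passed as higher. In the main fit 135 of 139 had a negative log2 change. The median change was -0.80 on the log2 scale for members and -0.02 for all genes. All 52 had 10 dpa libraries wholly below the 3 dpa libraries, as did 104 members in all, against 19.7% of all genes, while 1 member, ACP5, had them wholly above, also against 19.7%. Leaving out single 3 dpa libraries (replicates 1 to 3 in turn) gave 33, 29 and 35 falls, and leaving out single 10 dpa libraries gave 31, 31 and 35. In all, 19 of the 52 were called under each of 17 other settings. Because the samples are whole tissue, fewer cells of a type and less RNA per cell cannot be told apart here.

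Between 3 and 2 dpa, 6 members rose, 4.32% of them, which is near the 3.28% of all genes. None fell, against 0.494%. At an unadjusted p under 0.05, 37 members were higher and 1 was lower, and DESeq2 called 10 higher and 1 lower. Libraries at 3 dpa lay wholly above those at 2 dpa for 35 members, against 11.8% of all genes, and wholly below for 2, ACP5 and HAS1, against 6.51%. This comparison hung on single libraries, and in a fit of only these stages none of the 6 passed. No member passed without replicate 1 or without replicate 3 of 2 dpa, and 34 passed without replicate 2 of 2 dpa. Further, 1 passed without 3 dpa replicate 1 or 3, 3 passed without 3 dpa replicate 2, 3 without 10 dpa replicate 3 and 3 without uncut replicate 1. Between 10 and 2 dpa, 28 members fell, against 12.2% of all genes. None rose, against 17.8% of all genes, a share that again holds genes the choice leaves out; 1 was higher at an unadjusted p under 0.05, DESeq2 called none, and 8 passed as higher without 2 dpa replicate 2 and 1 without 10 dpa replicate 2. The falls numbered 19 without 10 dpa replicate 2, 20 without 10 dpa replicate 1 and 21 without 2 dpa replicate 2. All 28 had libraries that did not overlap, as did 44 members in all, against 18.4% of genes. For 0 members the 10 dpa libraries lay wholly above, against 23.2%.

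**Figure D2:**
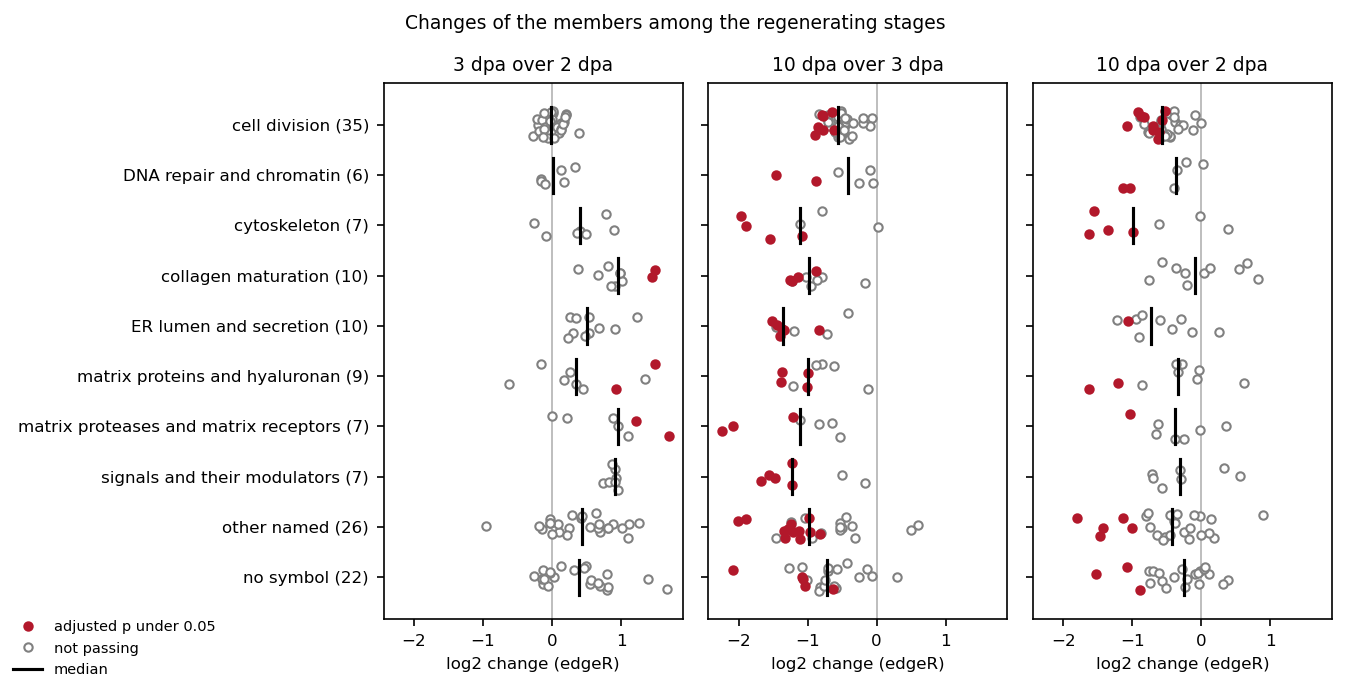
Change of each member on the log2 scale between regenerating stages (horizontal axes, edgeR) by role (rows), for 3 over 2 dpa, 10 over 3 dpa and 10 over 2 dpa. Filled points passed an adjusted p under 0.05 and black bars are group medians; in 10 over 3 dpa every group median is below 0, while in 3 over 2 dpa the collagen maturation, protease and signal medians are near 1 and that of cell division near 0.

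The 10 collagen maturation members were all highest at 3 dpa. Their median change between 3 and 2 dpa was 0.95 on the log2 scale, with 2 of 10 passing as higher, against 3.28% of all genes. Between 10 and 3 dpa it was -0.98, with 4 passing as lower, against 8.25%. P4HA1 (ENSDARG00000071082), a catalytic subunit of the prolyl 4-hydroxylase that stabilises the collagen helix, read 5.00, 5.02 and 6.86 CPM at 0 dpa, 12.4, 31.5 and 10.6 CPM at 2 dpa, 53.4, 57.1 and 38.3 CPM at 3 dpa, and 25.6, 36.2 and 24.5 CPM at 10 dpa. Its 3 dpa libraries lay above all 2 dpa libraries, with a log2 change of 1.45 ± 0.35 (SE), adjusted p = 0.0362, and the 10 dpa libraries lay between the uncut and 3 dpa ones. Without 2 dpa replicate 2 the log2 change was 2.1 ± 0.27 (SE), a fold 1.57 times as large. PLOD1 (ENSDARG00000059746), a lysyl hydroxylase, read 19.8, 11.2 and 27.8 CPM at 0 dpa, 47.2, 102 and 35.2 CPM at 2 dpa, 163, 164 and 191 CPM at 3 dpa, and 78.9, 103 and 87.0 CPM at 10 dpa. It rose between 3 and 2 dpa, with a log2 change of 1.49 ± 0.36 (SE), adjusted p = 0.0368. In both genes 2 dpa replicate 2 was 2-fold or more above the other 2 dpa libraries. Neither call held without 2 dpa replicate 1 or 3 or without any single 3 dpa library. Nor did they hold without uncut replicate 1 or without 10 dpa replicate 2 or 3. That of PLOD1 was also lost without the filter on low counts or with the replicate number as a block, where the adjusted p was 0.0540. Over these settings the adjusted p was up to 0.182.

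The lysyl hydroxylase PLOD2 kept its level best in this group. It read 6.31, 2.34 and 13.7 CPM at 0 dpa, 18.8, 46.3 and 21.8 CPM at 2 dpa, 63.7, 54.1 and 54.3 CPM at 3 dpa, and 55.1, 57.4 and 40.7 CPM at 10 dpa, so the 10 and 3 dpa libraries overlapped and 87.4% of the peak gain was left at 10 dpa (log2 change for 10 against 3 dpa -0.17 ± 0.44 (SE), adjusted p = 0.830). By contrast BMP1 (ENSDARG00000028071), the procollagen C-proteinase, had 158, 214 and 226 CPM at 10 dpa, against 390.1, 493 and 539.8 CPM at 3 dpa. It fell, with a log2 change of -1.25 ± 0.33 (SE), adjusted p = 0.0173, although not without 3 dpa replicate 2 or 3 or without 10 dpa replicate 1 (adjusted p up to 0.0675). Its enhancer PCOLCE2 had 111, 90.2 and 125 CPM at 10 dpa, against 335, 164 and 264 CPM at 3 dpa, a change of -1.22 ± 0.31 (SE), adjusted p = 0.0147, lost without 3 dpa replicate 1 or 10 dpa replicate 2 (adjusted p up to 0.0655).

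P3H1, the prolyl 3-hydroxylase, fell at 10 against 3 dpa, with a log2 change of -1.14 ± 0.28 (SE), adjusted p = 0.0112, with an adjusted p of 0.0511 without 10 dpa replicate 2. FKBP10, a collagen prolyl isomerase of the ER, had 111, 98.2 and 96.8 CPM at 10 dpa, against 192, 168 and 199 CPM at 3 dpa. It fell, with a log2 change of -0.87 ± 0.24 (SE), adjusted p = 0.0219, and lost the call without 3 dpa replicate 1 or 3 or 10 dpa replicate 2 or 3 (adjusted p up to 0.0773). The related isomerases FKBP7 and FKBP14 and the lysyl oxidase LOXL2, which cross-links secreted collagen, did not pass (log2 changes -0.86 ± 0.32, -1.02 ± 0.34 and -1.23 ± 0.41 SE, adjusted p = 0.0728, 0.0518 and 0.0505). Their 10 dpa libraries nevertheless all lay below their 3 dpa libraries. Between 10 and 2 dpa the median log2 change of this group was -0.08.

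The ER group holds calcium-binding and folding proteins of the secretory pathway, and all 10 were highest at 3 dpa. The reticulocalbin gene rcn3 (ENSDARG00000037961) had the largest ratio of any member with a symbol. It read 4.26, 2.08 and 4.19 CPM at 0 dpa, 31.2, 109 and 28.6 CPM at 2 dpa, 97.3, 117 and 103 CPM at 3 dpa, and 39.5, 44.4 and 27.2 CPM at 10 dpa. The regenerating libraries were all above 25 CPM and the uncut ones all under 5 CPM, while 2 dpa replicate 2 alone matched the 3 dpa libraries. Between 10 and 3 dpa 6 of the 10 fell, against 8.25% of all genes, and the group median was -1.35. RCN1, a second reticulocalbin, had 25.8, 26.2 and 24.3 CPM at 10 dpa, against 71.2, 65.7 and 65.0 CPM at 3 dpa and 42.3, 78.1 and 37.9 CPM at 2 dpa. It fell against both under all 17 other settings, with a log2 change of -1.40 ± 0.27 (SE), adjusted p = 0.00291, against 3 dpa and of -1.05 ± 0.27 (SE), adjusted p = 0.00893, against 2 dpa. The ribosome-binding protein gene rrbp1b fell at 10 against 3 dpa, with a log2 change of -1.45 ± 0.34 (SE), adjusted p = 0.0101, also under all 17.

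GPX7 and GPX8 are peroxidases of the ER lumen. GPX7 had 7.74, 7.74 and 5.79 CPM at 10 dpa, against 16.6, 17.6 and 20.8 CPM at 3 dpa (log2 change -1.37 ± 0.40 (SE), adjusted p = 0.0291, lost without any single 3 or 10 dpa library, adjusted p up to 0.105). GPX8 had 16.4, 31.4 and 21.7 CPM at 10 dpa, against 22.3, 46.0 and 24.1 CPM at 3 dpa (log2 change -0.42 ± 0.41 (SE), adjusted p = 0.519). The GPX8 libraries overlapped and those of GPX7 did not; the difference between the genes was not tested. TXNDC5, a protein disulfide isomerase, VKORC1, which recycles vitamin K, and rcn3 also fell at 10 against 3 dpa (log2 changes -0.84 ± 0.23, -1.34 ± 0.37 and -1.51 ± 0.43 SE, adjusted p = 0.0221, 0.0223 and 0.0243). Each of these 3 calls was lost without 3 dpa replicate 2, 10 dpa replicate 1 or 10 dpa replicate 3, that of TXNDC5 also without 3 dpa replicate 3 and that of rcn3 also without 3 dpa replicate 3, 10 dpa replicate 2 or the filter on low counts, with adjusted p up to 0.0986. CALU, fkbp11 and cnpy2 did not pass (adjusted p = 0.183, 0.0593 and 0.124).

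**Figure D3:**
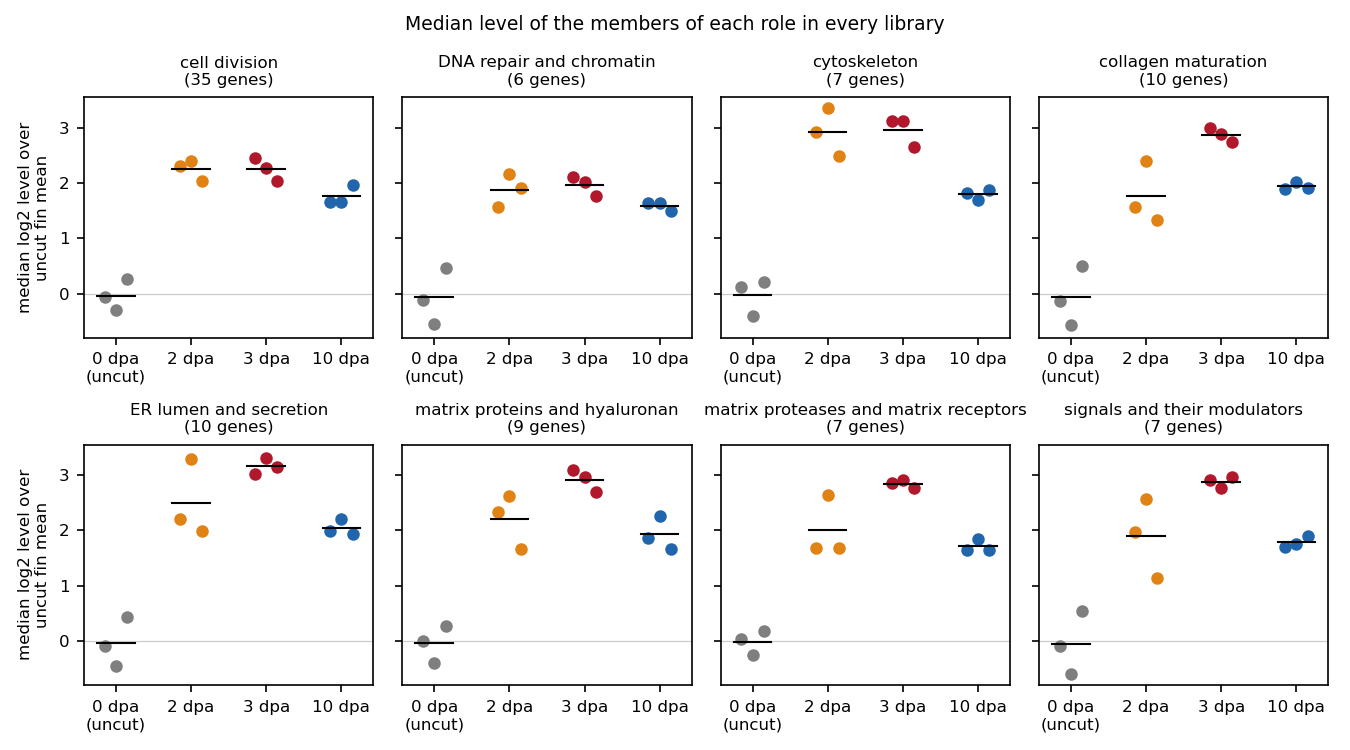
Median level of the members of each of 8 roles in every library, as log2 over the uncut fin mean of each gene (vertical axes), by stage (horizontal axes); each point is 1 library and lines are stage means. In every panel the 3 points at 3 dpa lie above the 3 points at 10 dpa, and the highest point at 2 dpa is replicate 2.

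Among matrix proteins, EFEMP2 and CTHRC1 rose between 3 and 2 dpa. EFEMP2 (ENSDARG00000094324), a fibulin needed for elastic fibre assembly in mammals, read 10.4, 7.01 and 8.03 CPM at 0 dpa, 46.8, 57.8 and 44.3 CPM at 2 dpa, 92.9, 84.7 and 105 CPM at 3 dpa, and 40.9, 49.4 and 52.5 CPM at 10 dpa. Its replicates were close at every stage, so that 3 dpa stood clear of both neighbours in time. The log2 change was 0.93 ± 0.19 (SE), adjusted p = 0.0195 for 3 over 2 dpa and -0.99 ± 0.20 (SE), adjusted p = 0.00358 for 10 over 3 dpa. The later fall was called in all 17 other settings, the earlier rise was not called without 2 dpa replicate 1 or 3 or 3 dpa replicate 1 or 3 (adjusted p up to 0.117). CTHRC1, a secreted protein linked to collagen turnover, read 1.31, 1.47 and 1.63 CPM at 0 dpa, 4.53, 6.66 and 6.88 CPM at 2 dpa, 23.1, 13.4 and 14.4 CPM at 3 dpa, and 10.7, 5.65 and 11.4 CPM at 10 dpa. It rose between 3 and 2 dpa, with a log2 change of 1.49 ± 0.31 (SE), adjusted p = 0.0166, lost without 2 dpa replicate 1 or 3 or 3 dpa replicate 1 (adjusted p up to 0.0784). Its 10 dpa level did not pass against 3 dpa (adjusted p = 0.0551).

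HAS1 (ENSDARG00000042983), a hyaluronan synthase, followed another course and was highest at 2 dpa. It read 0.738, 0.865 and 1.05 CPM at 0 dpa, 18.9, 16.2 and 20.3 CPM at 2 dpa, 11.0, 13.7 and 11.2 CPM at 3 dpa, and 5.55, 9.08 and 3.00 CPM at 10 dpa. The libraries of the regenerating stages did not overlap, 2 dpa above 3 dpa and 3 dpa above 10 dpa, and in 10 against 2 dpa the gene fell, with a log2 change of -1.63 ± 0.31 (SE), adjusted p = 0.00149 under all 17 other settings. The step between 10 and 3 dpa passed (adjusted p = 0.0345) but not without any single 3 dpa library, without 10 dpa replicate 1 or 3 or in a fit of only these stages (adjusted p up to 0.117), and that between 3 and 2 dpa did not pass (adjusted p = 0.341). HYAL4, of the hyaluronidase family, was highest at 3 dpa. It had 6.79, 8.67 and 5.37 CPM at 10 dpa, against 16.2, 22.0 and 16.1 CPM at 3 dpa, and fell, with a log2 change of -1.38 ± 0.41 (SE), adjusted p = 0.0317, lost without any single 3 or 10 dpa library (adjusted p up to 0.115). EGFL6, a matrix protein with EGF repeats, had 59.8, 97.3 and 94.6 CPM at 10 dpa, against 181, 236 and 232 CPM at 3 dpa and 185, 259.8 and 133 CPM at 2 dpa. It fell against 3 dpa, with a log2 change of -1.37 ± 0.27 (SE), adjusted p = 0.00374, and against 2 dpa, with a log2 change of -1.20 ± 0.27 (SE), adjusted p = 0.00464, under all 17 settings.

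The 2 members whose symbols name a collagen, COL12A1 of the fibril surface and col24a1 of the fibrillar class, did not pass between any regenerating stages. The gene hmcn2, a hemicentin of basement membranes, did not pass either (adjusted p = 0.0838 for 10 against 3 dpa). COL12A1 averaged 810.2 ± 242 CPM at 0 dpa, 3326 ± 77.9 at 2 dpa, 3988 ± 847 at 3 dpa and 2591 ± 416 at 10 dpa (SD, n = 3 each). The mimecan gene OGN averaged 145 ± 44.6 CPM at 10 dpa, against 36.9 ± 10.8 CPM in the uncut fin, 3.94-fold.

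In the protease and receptor group, mmp11b and mmp13a had the largest falls of all named members between 10 and 3 dpa. mmp11b (ENSDARG00000016718), of the stromelysin-3 type, read 24.5, 18.9 and 37.6 CPM at 0 dpa, 169.7, 224 and 139.8 CPM at 2 dpa, 329, 464 and 444 CPM at 3 dpa, and 80.0, 73.6 and 108 CPM at 10 dpa. Its 3 dpa libraries exceeded every other library, and at 10 dpa 15.6% of the gain was left, the smallest share of any member. It rose between 3 and 2 dpa, with a log2 change of 1.21 ± 0.27 (SE), adjusted p = 0.0264, and fell between 10 and 3 dpa, with a log2 change of -2.24 ± 0.28 (SE), adjusted p = 0.000168. The fall was called in all 17 other settings, the rise not without 2 dpa replicate 1 or 3 or 3 dpa replicate 2 or 3 (adjusted p up to 0.155).

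mmp13a (ENSDARG00000012395), a collagenase, read 10.7, 10.5 and 19.4 CPM at 0 dpa, 38.7, 78.5 and 45.9 CPM at 2 dpa, 179, 87.8 and 263 CPM at 3 dpa, and 63.0, 22.2 and 40.5 CPM at 10 dpa. At 3 dpa its libraries were spread nearly 3-fold, and all lay above the 2 and 10 dpa libraries. The change between 10 and 3 dpa was -2.07 ± 0.44 (SE), adjusted p = 0.00559, again called in all 17 settings. The change between 3 and 2 dpa was 1.70 ± 0.44 (SE), adjusted p = 0.0463. It was not called without uncut replicate 1 or 2, 2 dpa replicate 1 or 3, 3 dpa replicate 1 or 3 or 10 dpa replicate 3. Nor was it called with RLE scaling, without the filter on low counts or in the fit of only these stages (adjusted p up to 0.219). With the replicate number as a block it was not called either (adjusted p = 0.0999). mmp13a also stands on the neutrophil marker list, whose 9 genes summed to between 523 and 631 CPM in the uncut fin, 392 and 628 CPM at 2 dpa, 393 and 719 CPM at 3 dpa and 496 and 694 CPM at 10 dpa. These sums hold mmp13a itself. It averaged 13.5 CPM in the uncut fin and 54.3, 177 and 41.9 CPM at 2, 3 and 10 dpa. Of 8 other list genes tested, 1 was higher and 3 lower at 2 dpa than in the uncut fin, and 1 and 5 at 3 dpa. Among all genes 22.9% were higher and 24.1% lower at 2 dpa, and 22.8% and 21.3% at 3 dpa. Of the other genes on the list, those with the smallest p went different ways. The gelatinase MMP9 averaged 104 CPM in the uncut fin, 234 CPM at 2 dpa, 179 CPM at 3 dpa and 197 CPM at 10 dpa. The myeloid transcription factor CEBPA averaged 271 CPM in the uncut fin, 77.5 CPM at 2 dpa, 83.0 CPM at 3 dpa and 183 CPM at 10 dpa. The lysozyme gene lyz averaged 0.903 CPM in the uncut fin, 0.0390 CPM at 2 dpa, 0.0771 CPM at 3 dpa and 2.38 CPM at 10 dpa. Other cells may also make genes of this list, and lyz was low at every stage. The part of neutrophils in the mmp13a levels was not tested.

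ADAMTS17, a secreted metalloproteinase, kept 66.2% of its gain, with 111, 72.0 and 71.3 CPM at 10 dpa, against 133, 110.2 and 123 CPM at 3 dpa. ADAM12, a membrane-bound one, had 15.7, 16.7 and 14.4 CPM at 10 dpa, against 34.8, 37.3 and 29.4 CPM at 3 dpa, and did not pass (log2 change -1.12 ± 0.39 (SE), adjusted p = 0.0566). ITGA9, an integrin subunit that binds tenascin in mammals, fell, with a log2 change of -1.21 ± 0.33 (SE), adjusted p = 0.0207, in the same comparison, lost without 3 dpa replicate 2 or 3 or 10 dpa replicate 1 or 3 (adjusted p up to 0.0863). MRC2, a receptor that takes up collagen, was level between 2 and 3 dpa, with 47.1, 59.2 and 45.7 CPM at 3 dpa, against 49.4, 63.7 and 39.4 CPM at 2 dpa, and did not pass between 10 and 3 dpa (adjusted p = 0.0695). Nor did antxr1c, of a receptor family that binds collagen (29.8, 48.3 and 33.3 CPM at 10 dpa, against 58.0, 81.3 and 58.8 CPM at 3 dpa, adjusted p = 0.130).

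All 7 signals and modulators were highest at 3 dpa. Between 10 and 3 dpa 5 fell, against 8.25% of all genes, with a group median of -1.23. MDK (ENSDARG00000036036), midkine, a heparin-binding growth factor, read 121, 90.0 and 201 CPM at 0 dpa, 739.8, 1277 and 856 CPM at 2 dpa, 1595, 1958 and 2017 CPM at 3 dpa, and 521, 685 and 547 CPM at 10 dpa. It fell, with a log2 change of -1.67 ± 0.30 (SE), adjusted p = 0.00205, in all 17 other settings, and at 10 dpa it stood 4.26-fold above the uncut fin. SHH (ENSDARG00000068567), sonic hedgehog, which in the regenerating fin patterns the bone rays from the basal wound epidermis, read 1.31, 0.865 and 2.91 CPM at 0 dpa, 11.6, 17.3 and 5.08 CPM at 2 dpa, 17.2, 23.7 and 21.2 CPM at 3 dpa, and 5.55, 7.57 and 7.96 CPM at 10 dpa. All 3 dpa libraries were above all 10 dpa libraries, and the change was -1.56 ± 0.40 (SE), adjusted p = 0.0154, lost without 3 dpa replicate 2 or 10 dpa replicate 1 (adjusted p up to 0.0607).

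DKK3, of the Dickkopf family of secreted Wnt modulators, had 201, 173 and 274 CPM at 10 dpa, against 601, 422 and 494 CPM at 3 dpa (log2 change -1.23 ± 0.36 (SE), adjusted p = 0.0275). That call was lost without 3 dpa replicate 1 or 3 or 10 dpa replicate 1 or 2 (adjusted p up to 0.105). dact2, an intracellular modulator of Wnt and TGF-beta signalling, had 23.0, 22.9 and 22.1 CPM at 10 dpa, against 60.6, 65.1 and 63.0 CPM at 3 dpa (log2 change -1.47 ± 0.37 (SE), adjusted p = 0.0137; adjusted p = 0.0511 without 10 dpa replicate 3). The transmembrane protein gene tmeff1b fell, with a log2 change of -1.22 ± 0.32 (SE), adjusted p = 0.017, lost without 10 dpa replicate 1 or 2 (adjusted p up to 0.0644). The other two did not pass. kcp, which encodes a cysteine-rich BMP modulator, averaged 73.0 ± 15.1 CPM at 10 dpa, against 103 ± 5.09 CPM at 3 dpa. FSTL1, a follistatin-like secreted protein, averaged 263 ± 64.5 CPM at 10 dpa, against 295 ± 49.4 CPM at 3 dpa, and kept 86.7% of its gain.

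**Figure D4:**
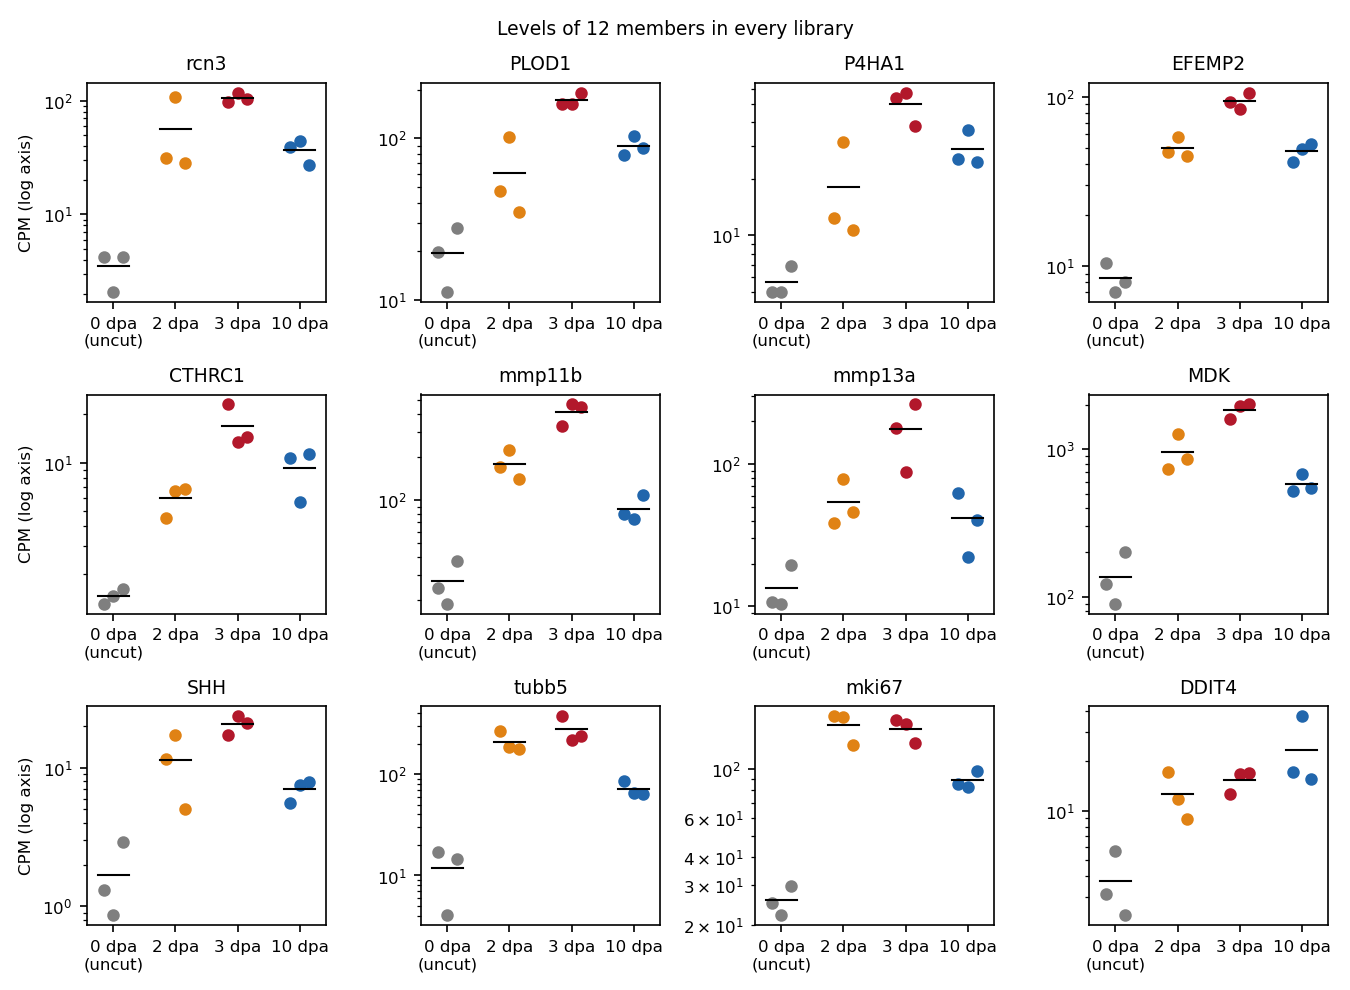
Level in CPM (vertical, log axes that differ between panels) of 12 members in every library, by stage (horizontal); points are libraries of pooled fish and lines are stage means. mmp11b, MDK and tubb5 are clearly lower at 10 than at 3 dpa, mki67 is level between 2 and 3 dpa, and DDIT4 is the panel in which the 10 dpa mean is highest.

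The 7 cytoskeletal members had a median of 32.1% of their gain left at 10 dpa, with single values between 22.4% and 100%. In 1 of the 7 the mean was highest at 10 dpa. Between 10 and 3 dpa 4 of the 7 fell, against 8.25% of all genes. The beta-tubulin gene tubb5 (ENSDARG00000037997) read 17.1, 4.07 and 14.4 CPM at 0 dpa, 266, 185 and 177 CPM at 2 dpa, 375, 219 and 237 CPM at 3 dpa, and 86.5, 64.4 and 63.0 CPM at 10 dpa. The alpha-tubulin gene tuba1b (ENSDARG00000045367) read 6.97, 4.67 and 6.98 CPM at 0 dpa, 54.0, 82.1 and 45.4 CPM at 2 dpa, 63.8, 62.0 and 44.6 CPM at 3 dpa, and 18.9, 17.4 and 22.4 CPM at 10 dpa. In both, each 10 dpa library was below each 2 and 3 dpa library, and 22.4% and 24.6% of the gain was left. Between 10 and 3 dpa the log2 change was -1.96 ± 0.39 (SE), adjusted p = 0.00391, for tubb5 and -1.54 ± 0.25 (SE), adjusted p = 0.00104, for tuba1b. Both also fell against 2 dpa, with log2 changes of -1.55 ± 0.39 and -1.63 ± 0.25 SE (adjusted p = 0.00844 and 0.000328), and all 4 falls were called in all 17 settings. Tubulin genes have near-identical copies, so their counts may be split between them.

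DPYSL5 (ENSDARG00000011141), of the collapsin response mediator family known from growing axons, read 3.36, 0.951 and 2.21 CPM at 0 dpa, 27.0, 45.2 and 30.2 CPM at 2 dpa, 74.6, 52.5 and 64.3 CPM at 3 dpa, and 19.7, 15.3 and 16.6 CPM at 10 dpa. It fell between 10 and 3 dpa, with a log2 change of -1.89 ± 0.31 (SE), adjusted p = 0.00105, in all 17 settings. Against 2 dpa the change of -0.99 ± 0.30 (SE), adjusted p = 0.0244, was lost without 2 dpa replicate 2 or 10 dpa replicate 2 or 3 (adjusted p up to 0.0824). Glia and nerve markers, a list of 14 genes, summed to between 148 and 174 CPM in the uncut fin, 54.0 and 73.7 CPM at 2 dpa, 48.9 and 50.8 CPM at 3 dpa and 119 and 142 CPM at 10 dpa, in the reverse order of DPYSL5. At 2 dpa, 12 of the 14 were under 1 CPM. Their part in the DPYSL5 level was not tested. Symbol MARCKS, an actin-binding substrate of protein kinase C, belongs to 2 members. Identifier ENSDARG00000004049 had 12.9, 9.25 and 13.2 CPM at 10 dpa, against 32.0, 21.2 and 22.0 CPM at 3 dpa, and fell against 3 and 2 dpa, with log2 changes of -1.08 ± 0.25 and -1.35 ± 0.25 SE (adjusted p = 0.00921 and 0.00137), in all 17 settings. ENSDARG00000008803 averaged 63.7 ± 10.6 CPM at 10 dpa, against 138 ± 4.46 CPM at 3 dpa, and did not pass (adjusted p = 0.0915).

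Cell division was the role with most members, and its levels at 3 and 2 dpa were close. Of the 35, 20 had their highest mean at 2 dpa and 15 at 3 dpa, the median log2 change between 3 and 2 dpa was -0.01, with values between -0.28 and 0.39. At 10 dpa the median member kept 59.5% of its gain. Of the 35, 7 fell against 3 dpa and 10 against 2 dpa, where 8.25% and 12.2% of all genes did. The proliferation marker mki67 (ENSDARG00000091150) read 25.1, 22.1 and 29.8 CPM at 0 dpa, 172, 169.8 and 128 CPM at 2 dpa, 165, 158 and 130.0 CPM at 3 dpa, and 85.2, 83.0 and 97.6 CPM at 10 dpa. Its 2 and 3 dpa libraries overlapped and the 10 dpa libraries lay below them and above the uncut fin. It fell at 10 against 2 dpa, with a log2 change of -0.82 ± 0.19 (SE), adjusted p = 0.00522, in all 17 settings. It also fell against 3 dpa, with a log2 change of -0.77 ± 0.19 (SE), adjusted p = 0.0124, with an adjusted p of 0.0557 without 10 dpa replicate 2.

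FOXM1 (ENSDARG00000003200), the transcription factor of late cell cycle genes, had 28.9, 16.9 and 27.4 CPM at 10 dpa, against 65.8, 41.3 and 47.2 CPM at 2 dpa and 6.97, 5.54 and 8.96 CPM in the uncut fin. It fell against 2 dpa, with a log2 change of -1.08 ± 0.28 (SE), adjusted p = 0.0101, in all 17 settings. FOXM1 also passed as lower against 3 dpa, but that call was lost in 10 of the 17 settings (adjusted p up to 0.194). Other members of mitosis showed smaller steps. CDK1, the mitotic kinase, averaged 27.3 ± 6.77 CPM at 0 dpa, 148 ± 27.7 at 2 dpa, 163 ± 48.5 at 3 dpa and 111 ± 17.0 at 10 dpa (SD, n = 3 each), and did not pass at 10 dpa against 3 dpa (adjusted p = 0.138). TOP2A, the topoisomerase that untangles chromosomes, averaged 16.4 ± 3.37, 102 ± 10.9, 109 ± 10.7 and 71.1 ± 1.51 CPM at these stages. It passed as lower at 10 dpa against 3 and 2 dpa (adjusted p = 0.028 and 0.0426), but lost both calls without any single 3 dpa or 10 dpa library or without the filter on low counts, and that against 2 dpa also without uncut replicate 1 or 2 dpa replicate 1 or 2 or in a fit of only these stages (adjusted p up to 0.111).

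kifc1, a minus-end directed mitotic motor, had 16.7, 19.2 and 23.0 CPM at 10 dpa, against 20.9, 22.5 and 17.9 CPM at 3 dpa and 19.5, 22.9 and 19.9 CPM at 2 dpa. Its 3 regenerating stages overlapped and 93.2% of the gain was left. The spindle checkpoint kinases TTK and bub1, the centralspindlin genes RACGAP1 and KIF23, the cytokinesis genes ECT2 and anln and the condensin subunits SMC2, SMC4 and NCAPG2 were between 3.11-fold (KIF23) and 4.87-fold (RACGAP1) above the uncut fin at 10 dpa in their fitted levels. Of these 9 only TTK passed as lower at 10 dpa, against 2 dpa (adjusted p = 0.0335, lost without 2 dpa replicate 1 or 2 or 10 dpa replicate 1 or 2 and in a fit of only these stages, up to 0.121). Levels of these mitotic genes in the uncut fin were low and not 0, for instance 15.8, 9.17 and 15.8 CPM for bub1.

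Among 6 members for DNA repair and chromatin, 2 fell at 10 dpa against both earlier stages. Of all genes, 8.25% fell against 3 dpa and 12.2% against 2 dpa. SMARCAD1, a chromatin remodeller used in DNA end resection, had 16.2, 10.4 and 11.0 CPM at 10 dpa, against 39.5, 31.3 and 33.0 CPM at 3 dpa and 28.7, 31.8 and 21.5 CPM at 2 dpa. It fell against 3 dpa, with a log2 change of -1.46 ± 0.31 (SE), adjusted p = 0.00504, in all 17 settings. It also fell against 2 dpa, with a log2 change of -1.13 ± 0.31 (SE), adjusted p = 0.013, with an adjusted p of 0.0536 without 10 dpa replicate 3. PARPBP, a PARP1-binding protein of homologous recombination, fell against 2 dpa, with a log2 change of -1.03 ± 0.25 (SE), adjusted p = 0.00674, in all 17 settings. It also fell against 3 dpa, with a log2 change of -0.87 ± 0.25 (SE), adjusted p = 0.0256, lost without 3 dpa replicate 1 or 2 or 10 dpa replicate 1 or 2 (adjusted p up to 0.105). RPA2, a subunit of the single-stranded DNA binding complex, had 13.1, 20.8 and 14.6 CPM at 10 dpa, against 14.2, 21.4 and 16.1 CPM at 3 dpa. RAD54L, a recombination helicase-like motor, had 9.42, 9.95 and 8.47 CPM at 10 dpa, against 7.58, 11.6 and 9.59 CPM at 3 dpa; in both genes the stages overlapped and no late comparison passed.

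In the remaining named genes, alpi.1 (ENSDARG00000015273), of the intestinal alkaline phosphatase family, had the smallest adjusted p of any member in the comparisons of 10 dpa with 3 and 2 dpa. It read 51.0, 32.8 and 49.8 CPM at 0 dpa, 747, 635 and 668 CPM at 2 dpa, 864, 698 and 628 CPM at 3 dpa, and 184, 208 and 199 CPM at 10 dpa. The 2 and 3 dpa libraries overlapped, the 10 dpa libraries were 4.42-fold above the uncut fin, and they fell in all 17 settings, with a log2 change of -1.89 ± 0.22 (SE), adjusted p = 9.74e-05, against 3 dpa and of -1.80 ± 0.22 (SE), adjusted p = 5.21e-05, against 2 dpa. KPNA2, an importin alpha of nuclear import, had 113, 105 and 164 CPM at 10 dpa, against 361, 303 and 289.9 CPM at 3 dpa. It fell, with a log2 change of -1.32 ± 0.28 (SE), adjusted p = 0.00515, again in all 17 settings. Of the 26 genes in this group, 12 fell between 10 and 3 dpa and 5 between 10 and 2 dpa, against 8.25% and 12.2% of all genes.

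ACP5 (ENSDARG00000019763), tartrate-resistant acid phosphatase, a product of osteoclasts and some macrophages, followed another course. It read 11.0, 3.63 and 8.03 CPM at 0 dpa, 79.7, 53.2 and 43.9 CPM at 2 dpa, 31.6, 28.7 and 31.2 CPM at 3 dpa, and 46.7, 43.9 and 39.1 CPM at 10 dpa. Its 2 dpa libraries were above all 3 dpa libraries, and the 10 dpa libraries were also above them, the only such case among the 139. Neither step passed (log2 changes -0.95 ± 0.30 and 0.50 ± 0.30 SE, adjusted p = 0.112 and 0.269). The macrophage and leukocyte list, 40 genes, summed to between 20693 and 22226 CPM in the uncut fin, 11068 and 15780.2 CPM at 2 dpa, 12146 and 16173 CPM at 3 dpa, and 8499 and 15103 CPM at 10 dpa, with 7 to 10 of its genes under 1 CPM at a stage. Much of this sum came from cd74a and cd74b. They averaged 4814 and 12117 CPM in the uncut fin and 591 and 1885 CPM at 2 dpa. Of 35 list genes tested, 11 were higher and 6 lower at 2 dpa than in the uncut fin. Among all genes 22.9% were higher and 24.1% lower. The part of macrophages and leukocytes in the ACP5 level was not tested. DDIT4, a stress-induced inhibitor of mTOR signalling, read 3.12, 5.71 and 2.33 CPM at 0 dpa, 17.1, 11.8 and 8.83 CPM at 2 dpa, 12.5, 16.6 and 17.0 CPM at 3 dpa, and 17.0, 37.4 and 15.5 CPM at 10 dpa. The highest library was 10 dpa replicate 2, the regenerating stages overlapped, and no late comparison passed (adjusted p = 0.084 for 10 against 2 dpa).

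Of the 22 members without a symbol, 4 had ratios above that of any member with a symbol. ENSDARG00000039462 headed the whole set. It read 13.5, 3.2 and 20.2 CPM at 0 dpa, 107, 375 and 90.8 CPM at 2 dpa, 551, 602 and 657 CPM at 3 dpa, and 155, 290.2 and 306 CPM at 10 dpa. The 3 dpa libraries were above all others, and at 2 dpa replicate 2 was more than 3-fold above replicates 1 and 3. No late comparison passed (adjusted p = 0.135 for 10 against 3 dpa). ENSDARG00000015797 read 4.02, 2.68 and 4.65 CPM at 0 dpa, 75.4, 95.6 and 49.9 CPM at 2 dpa, 66.1, 102 and 154 CPM at 3 dpa, and 21.0, 25.8 and 29.9 CPM at 10 dpa. It fell at 10 dpa in all 17 settings, with a log2 change of -2.08 ± 0.32 (SE), adjusted p = 0.000685, against 3 dpa and of -1.53 ± 0.31 (SE), adjusted p = 0.00252, against 2 dpa. In the group as a whole, 5 of 22 fell between 10 and 3 dpa, against 8.25% of all genes. Between 10 and 2 dpa 3 of 22 fell, near the 12.2% of all genes.

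The limit of 150 genes fell within a dense run of ratios. Just inside it were RTKN2, CTHRC1, SUV39H1, tuba1b and myl6, with ratios of 3.03, 3.03, 3.03, 3.02 and 3.02. Just outside were RASL11B with 3.02, NCAPD2 with 3.01, cdca7b with 3.00, an identifier without a symbol with 3.00 and si:dkeyp-117h8.4 with 2.99. Leaving out single libraries and choosing again kept between 112 and 137 of the 139, and 66 were chosen under every setting tried. The lowest, 112, was without uncut replicate 3.

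Other genes of the same pathways were taken from lists and are not members. Most of those on the cell cycle list and on the ER folding and secretion list stood higher at 2 and 3 dpa. Against the uncut fin, 34 of 39 further cell cycle genes passed as higher at 2 dpa, 32 at 3 dpa and 20 at 10 dpa, and the median log2 changes were 1.59, 1.37 and 1.29. For all genes the shares passing as higher are given above, 24.1% passed as lower at 2 dpa, 21.3% at 3 dpa and 2.78% at 10 dpa, and the medians were 0.03, 0.05 and 0.04. NCAPH, a condensin subunit, averaged 17.5 ± 1.21 CPM at 10 dpa, against 5.54 ± 1.70 CPM in the uncut fin (adjusted p = 0.00172). The count at 10 dpa was 11 without uncut replicate 1, 10 without uncut replicate 2 and 13 without 10 dpa replicate 3. Of 48 further ER folding and secretion genes, 36 were higher and 2 lower at 2 dpa, 36 higher and 1 lower at 3 dpa, and 14 higher at 10 dpa. The median log2 changes were 1.07, 1.35 and 0.61. Between 10 and 3 dpa 26 fell, against 8.25% of all genes. There MANF, a secreted ER stress factor, averaged 24.3 ± 5.21 CPM at 2 dpa and 9.67 ± 0.574 CPM at 10 dpa, against 3.63 ± 0.786 CPM in the uncut fin (adjusted p = 1.79e-06 at 2 dpa). The count at 10 dpa was 8, 4 and 9 without uncut replicates 1, 2 and 3, and 8 and 7 without 10 dpa replicates 1 and 2.

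Matrix lists were divided. Among all genes 22.9% passed as higher and 24.1% as lower at 2 dpa, and 22.8% and 21.3% at 3 dpa. At 10 dpa the shares were 6.62% and 2.78%. They are given as background, and no list was tested against them. Of 20 further collagen maturation genes, 10 were higher and 5 lower at 2 dpa, 14 higher and 3 lower at 3 dpa, and 12 higher at 10 dpa (6 without uncut replicate 1, 5 without uncut replicate 2). The median log2 changes were 0.97, 1.77 and 1.36. ADAMTS14, a procollagen N-proteinase, averaged 24.3 ± 2.42 CPM at 2 dpa, against 4.22 ± 0.679 CPM in the uncut fin (adjusted p = 2.30e-06), whereas LOXL1, a lysyl oxidase relative of LOXL2, averaged 2.40 ± 0.867 CPM at 2 dpa, against 37.9 ± 4.84 CPM in the uncut fin (adjusted p = 6.94e-07). Of 28 further metalloproteinases and inhibitors, 11 were higher and 6 lower at 2 dpa, 15 and 3 at 3 dpa, and 9 higher at 10 dpa (5 without uncut replicate 2, 14 with DESeq2), with median log2 changes of 0.45, 0.93 and 0.93. The next lists held more genes lower than higher at 2 dpa, or about as many. Of 29 further extracellular glycoproteins, 3 were higher and 13 lower at 2 dpa (8 lower without uncut replicate 3), and 8 and 7 at 3 dpa. The median log2 changes were -1.01, 0.21 and 0.91 at 2, 3 and 10 dpa. Of 27 proteoglycans and hyaluronan genes, 3 were higher (5 without 2 dpa replicate 3) and 9 lower at 2 dpa, and 11 and 7 at 3 dpa (4 lower without uncut replicate 1 or 3 dpa replicate 1). The medians were -0.42, -0.20 and 0.90. Of 24 collagens outside the fibrillar class, 4 were higher (2 without 2 dpa replicate 2) and 8 lower at 2 dpa, and 9 (5 without 3 dpa replicate 2) and 6 at 3 dpa. The medians were -0.35, 0.79 and 1.01. Of 27 basement membrane genes, 9 were higher and 8 lower at 2 dpa, and 11 and 6 at 3 dpa. The medians were -0.03, 0.56 and 0.55. At 10 dpa these 4 lists had 8, 10, 8 and 6 genes higher, which without uncut replicate 1 were 3, 4, 0 and 3, without uncut replicate 2 were 2, 1, 0 and 1. They were 5, 1, 5 and 3 without 10 dpa replicate 1, 3, 2, 0 and 2 without replicate 2, and 3, 2, 1 and 1 without replicate 3. Without 2 dpa replicate 2 the glycoproteins numbered 13 and the other collagens 14. Without 3 dpa replicate 3 the glycoproteins 5, the proteoglycans 6 and the basement membrane genes 3. Without uncut replicate 3 the proteoglycans numbered 5.

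The 11 further fibrillar collagens leaned the other way. Of these, 5 were higher at 2 dpa, 10 at 3 dpa and 9 at 10 dpa, with median log2 changes of 0.97, 1.76 and 1.99. The count at 2 dpa was 0 without uncut replicate 1 or 2 or 2 dpa replicate 2, 10 without uncut replicate 3 and 3 without any single 3 or 10 dpa library. That at 10 dpa was 1 and 3 without uncut replicates 1 and 2 and 4 without 10 dpa replicate 2 or 3. Among 64 further signals and regulators of the blastema, 23 were higher and 20 lower at 2 dpa (13 lower without uncut replicate 1), 30 and 10 at 3 dpa (6 lower without 3 dpa replicate 2), and 14 higher at 10 dpa, with median log2 changes of -0.01, 0.66 and 0.60. The last count was 5 and 3 without uncut replicates 1 and 2, and 9, 7 and 7 without 10 dpa replicates 1, 2 and 3. The shares of all genes at each stage are those given beside the matrix lists.

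Marker lists of other cell types moved over the same stages. The osteoblast and bone list holds 23 genes, with the member ACP5 among them. It summed to between 3222 and 8020 CPM in the uncut fin, 4614 and 9008 CPM at 2 dpa, 14635 and 15400 CPM at 3 dpa, and 13838 and 17315 CPM at 10 dpa. Its ranges at 10 and 3 dpa overlapped. Of 21 further genes tested, 3 were higher and 5 lower at 2 dpa, 10 and 5 at 3 dpa, and 9 and 1 at 10 dpa. The shares of all genes are given above. Pigment cell genes, 18 in number, summed to between 552 and 654 CPM in the uncut fin, 71.1 and 101 CPM at 2 dpa, 65.7 and 115 CPM at 3 dpa, and 527 and 648 CPM at 10 dpa. Epidermal genes, 38, summed to between 81041 and 106208 CPM in the uncut fin, 80078 and 149824 CPM at 2 dpa, 58185 and 62132 CPM at 3 dpa, and 69824 and 78584 CPM at 10 dpa. Single epidermal genes went different ways. Between the uncut fin and 2 dpa the mean of krt18a.1 went from 630 to 15413 CPM, and that of col17a1a from 1162 to 16.4 CPM. Of 34 further epidermal genes tested, 5 were higher and 12 lower at 2 dpa. The part of the listed cell types in the members' levels was not tested.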

How the data were processed

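Messenger RNA of zebrafish caudal fins was measured in 12 libraries, 3 per stage, with RNA of 6 fish each, per the labels. Per the labels' protocols, a column kit without carrier RNA gave the RNA and a SENSE kit the SOLiD libraries. The authors deposited raw counts per Ensembl gene identifier, 1 column per library, and each column was tied to its sample through the name that the labels quote. Neither aligner, counter, build nor use of strand is named there (not given in the sources used here), so counts of near-identical, overlapping or antisense genes are uncertain. A name table gave symbols. Capital symbols (74 members) follow the human gene and do not say which paralog is meant, and 18 members share their symbol with another identifier.

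The members and gene lists were chosen with earlier results of these data known, and roles were assigned after the values were seen. Counts were tested with edgeR 4.0.16 (R 4.3.3) by the robust quasi-likelihood test with TMM scaling and filterByExpr at a count minimum of 10, in 1 fit of all 12 libraries with stage as the only term (16612 genes, biological coefficient of variation 26.9%, 8 residual degrees of freedom). P-values are two-sided and Benjamini-Hochberg adjusted over all genes, called under 0.05 with no fold threshold. TMM factors lay between 0.909 and 1.13. The script was tested on simulated counts. Alternatives were RLE scaling, no filter, the replicate block, only the stages compared, DESeq2 1.42.0 and each library left out in turn, 17 in all. Members considered for naming were the 30 with a symbol and the largest ratio, and those on a list. The largest called changes and those at the limit of 150 were added. Not all of these are printed, and other members were named after their values were seen. Non-members are those with the smallest p on their list, up to 3 a list.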

Additional observations from a re-analysis of the deposited data

How the results depend on the processing

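For 3 against 2 dpa, members called higher numbered 6, and 5 with RLE scaling, 5 without the filter, 0 in a fit of only those stages and 10 with DESeq2; leaving out 1 library gave between 0 and 34, and 7 without uncut replicate 3. Members called lower numbered 0, 1 with DESeq2 and between 0 and 1 with 1 library left out. For 10 against 3 dpa, members called lower numbered 52, and 50 with RLE scaling, 47 without the filter, 70 in a fit of only those stages and 62 with DESeq2; with 1 library left out the count lay between 29 and 69. Members called higher numbered 0, with 1 in the fit of only those stages. For 10 against 2 dpa, 28 fell, 32 with RLE scaling, 28 without the filter, 21 in the fit of only those stages, 38 with DESeq2 and between 19 and 40 with 1 library left out; 0 rose, and between 0 and 8 with 1 library left out. Of the single members called, 242 values under other settings lost the call, 1220 kept it and 0 changed sign.

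Replicate numbers recur at each stage, and the labels give a code that follows the number without saying what it marks. Deviations from the stage means correlated with a median of 0.147 over 18 same-numbered pairs (between -0.258 and 0.559, 11 over 0.1) and of -0.0595 over 36 other pairs, and for 9 of 12 libraries the closest other library bore the same number, which hints at pairs without the design saying so. Because the sources state no pairs, the main fit did not take the numbers as pairs, and its p-values ignore any such pairing. With the replicate block, 5 members rose between 3 and 2 dpa, 62 fell between 10 and 3 dpa and 36 fell between 10 and 2 dpa; the rises of PLOD1 and mmp13a between 3 and 2 dpa were not called with the block (adjusted p = 0.0540 and 0.0999). The 3 pools per stage limit precision. Folds of 38 members at 2 dpa over the uncut fin moved by over 1.5 times on leaving out 1 library. For these no fold at 2 dpa over the uncut fin is printed, and levels are given for some of them only. Some folds at 3 and 10 dpa over the uncut fin were as unsteady. Without uncut replicate 3, the fold at 10 dpa moved 1.96 times for ADAMTS17 and 1.69 times for PLOD2.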
